A study of Mus musculus with 3 samples.

Results

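Transcript levels of 9 S100 genes were described in 3 cell populations of the mouse peritoneal cavity, with 1 array each. The genes, S100a1, S100a4, S100a6, S100a8, S100a9, S100a10, S100a11, S100a13 and S100b, were chosen from the S100 family on their levels on these same arrays, so the levels that follow are a description with no test. They are 9 of the 22180 genes measured, and each is represented by 1 probe set. Mast cell progenitors, mature mast cells and also type 2 innate lymphoid cells were sorted from naive, untreated female BALB/c mice aged 10 to 11 weeks, after the cells of 5 animals had been pooled. Progenitors and mature mast cells were both sorted as c-kit high, FcεRI positive and T1/ST2 positive. Side scatter was low and integrin β7 high on progenitors, whereas mature cells had high side scatter and negative to intermediate integrin β7. Innate lymphoid cells were c-kit negative or low, FcεRI negative and positive for CD127, CD25 and T1/ST2. RNA of 100 cells was amplified from each population. With 1 array each, values carry no error, and pooling hides the spread between animals. In such bulk samples fewer expressing cells and less RNA per cell cannot be told apart.

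S100 proteins are small, mostly dimeric proteins of vertebrates with a pair of EF-hands, the helix-loop-helix fold that binds calcium. Inside the cell, calcium opens a surface on the dimer that binds targets such as annexins and myosin, and some members are also released and act on receptors such as RAGE and TLR4. In leukocytes the family is best known for S100a8 and S100a9, the subunits of calprotectin in neutrophils and monocytes, and for S100a4, S100a6, S100a10 and S100a11, which accompany motility and membrane traffic in many cell types.

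The promoters of 3 genes that differed at least 4-fold in some comparison are shown with that of S100a8, whose level was the same on all arrays. Each is the 250 bases upstream of the annotated start, 5′ to 3′, taken from RefSeq (GRCm38.p6). Capitals mark matches, on either strand, to TATAAA (the TATA box), CCAAT (the CCAAT box), TGANTCA (the AP-1 site), GGGCGG (the GC box) and AGATAA (the site of GATA factors).
S100a4 (chr3:90603520-90603769, + strand): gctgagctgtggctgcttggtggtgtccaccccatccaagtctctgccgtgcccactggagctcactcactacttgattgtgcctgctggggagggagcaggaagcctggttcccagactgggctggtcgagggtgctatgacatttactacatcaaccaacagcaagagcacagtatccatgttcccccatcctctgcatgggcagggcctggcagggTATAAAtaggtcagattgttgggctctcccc
S100a6 (chr3:90612644-90612893, + strand): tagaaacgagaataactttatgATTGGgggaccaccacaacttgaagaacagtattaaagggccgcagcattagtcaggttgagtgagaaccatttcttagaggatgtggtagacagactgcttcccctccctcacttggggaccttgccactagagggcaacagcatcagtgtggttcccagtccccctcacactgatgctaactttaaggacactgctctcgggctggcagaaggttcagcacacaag
S100a11 (chr3:93520246-93520495, + strand): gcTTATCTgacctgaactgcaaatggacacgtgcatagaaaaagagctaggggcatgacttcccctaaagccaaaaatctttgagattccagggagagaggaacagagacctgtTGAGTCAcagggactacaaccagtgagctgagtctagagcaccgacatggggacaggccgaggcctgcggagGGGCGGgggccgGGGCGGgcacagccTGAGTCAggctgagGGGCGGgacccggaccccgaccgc
S100a8 (chr3:90668821-90669070, + strand): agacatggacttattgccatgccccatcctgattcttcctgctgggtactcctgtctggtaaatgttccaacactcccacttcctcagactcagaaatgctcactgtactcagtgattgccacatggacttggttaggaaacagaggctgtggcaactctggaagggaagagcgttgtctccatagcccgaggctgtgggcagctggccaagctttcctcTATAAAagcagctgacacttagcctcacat

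Of these motifs only TATAAA occurred in more than 1 of the 4 windows. TATAAA began 31 bases upstream of the start in S100a4 and 30 bases upstream in S100a8, and 12.4% of 32851 RefSeq promoter windows of this length hold it. TGANTCA occurred at 136 and 38 bases upstream of S100a11, in the window of 1 of 8 members in the table and in 6.75% of all windows. GGGCGG occurred 3 times upstream of S100a11 and is held by 32.7% of all windows. AGATAA, held by 9.99%, matched on the reverse strand in the same window, where the marked TTATCT begins 248 bases upstream. In the S100a6 window the single match was CCAAT on the reverse strand, 228 bases upstream, a motif in 33.8% of all windows. No 2 marked matches overlapped in these windows. The RefSeq table held promoters for 8 of the 9 genes. A match describes these letters and does not show that a factor binds there.

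Levels are given on the log2 scale of the deposited table, where a difference of 1 is 2-fold. A gene was counted as 4-fold different when 2 arrays differed by at least 2 and the brighter level lay above its array's median. This median, taken over the probe sets that name 1 gene, was 6.32 on the progenitor array and 6.30 on each of the others. By this count S100a4, S100a6 and S100a11 were highest in innate lymphoid cells and differed at least 4-fold from progenitors, S100a4 also differed from mature mast cells, and S100a6 also differed between the mast cell populations. S100a10 was highest in innate lymphoid cells as well, at under 4-fold, and the other 5 genes differed by at most 0.28 on the log2 scale across the arrays. The 3 comparisons share arrays and are therefore not independent of each other.

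**Figure D1:**
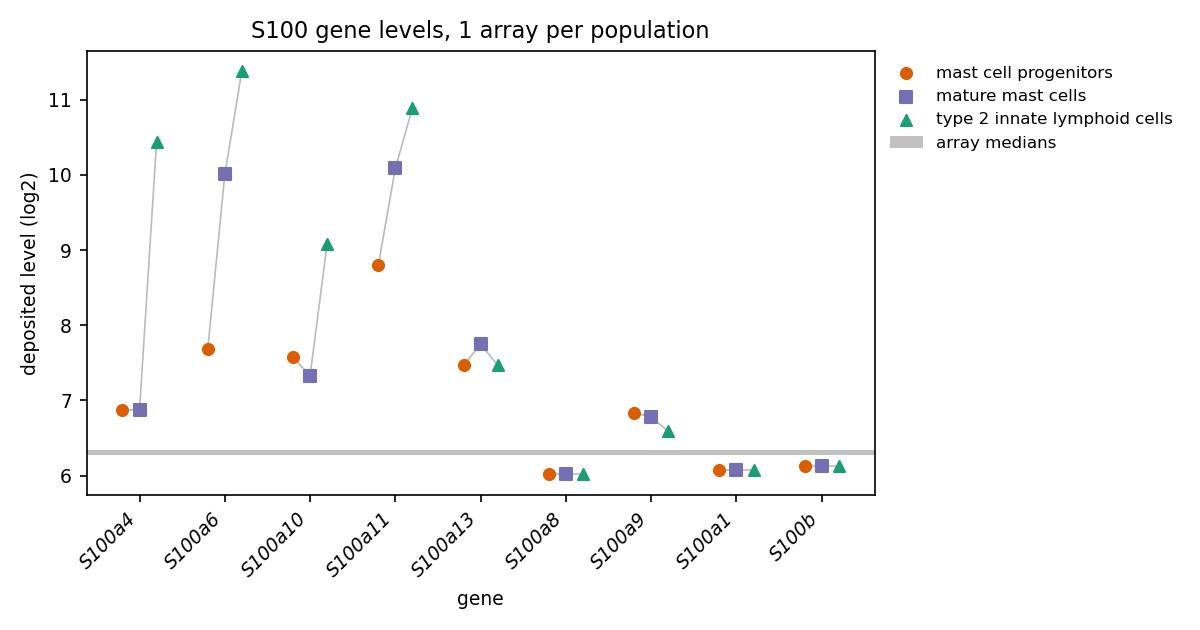
Deposited log2 level (vertical axis) of the 9 S100 genes (horizontal axis) for progenitors (circles), mature mast cells (squares) and innate lymphoid cells (triangles), 1 array each, with the array medians as a grey band. S100a4, S100a6, S100a10 and S100a11 are highest in innate lymphoid cells, and S100a1, S100a8 and S100b lie below the medians at 1 level on all arrays.

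S100a4, a motility-associated protein that binds non-muscle myosin, was at 6.87 in progenitors, at 6.87 in mature mast cells and at 10.44 in innate lymphoid cells. Innate lymphoid cells alone were high, by 3.57 on the log2 scale or 11.9-fold over either mast cell population. The mast cell values were exactly equal, and that same deposited value was also held by 43 other genes in progenitors and 48 other genes in mature cells. The fold is thus taken against a value common to many genes. Of all genes, 82 (0.37%) were at least 4-fold above both mast cell populations in innate lymphoid cells, and 16 (0.0721%) were so with exactly tied mast cell arrays. The difference of S100a4 was the 24th largest in favour of innate lymphoid cells over mature mast cells among 22180 genes and the 65th largest over progenitors.

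S100a6, also known as calcyclin, was at 7.68 in progenitors, at 10.01 in mature mast cells and at 11.38 in innate lymphoid cells. The levels rank in 3 steps, with each array at least 2-fold from the next. Progenitors were 5.02-fold below mature mast cells and their log2 difference from innate lymphoid cells was -3.70, whereas mature mast cells were 2.60-fold below innate lymphoid cells. S100a6 was the only S100 gene to differ 4-fold between the mast cell populations. No other gene held the same value on any array. The same order with both steps at least 2-fold was seen in 41 genes (0.185%), and 32 of these were among the 693 genes whose mean level reached 8 (4.62% of them). These 41 included 7 of 74 genes with symbols of the ribosomal protein form (9.46%). The 74 were picked by symbol alone (Rpl or Rps and a number) and can include genes of other proteins. This class was looked at after the values were seen.

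S100a11, or calgizzarin, a partner of annexin A1, was at 8.80 in progenitors, at 10.09 in mature mast cells and at 10.89 in innate lymphoid cells. Its order matched that of S100a6 with smaller steps. Progenitors were 4.27-fold below innate lymphoid cells and 2.45-fold below mature cells, while mature cells were 1.74-fold below innate lymphoid cells. Quantile normalization of the arrays took the difference between progenitors and innate lymphoid cells to -1.85, under the 4-fold limit. A pseudogene, S100a11-ps, had a probe set of its own at 7.94, 7.85 and 8.66 in the same order of populations, and how far transcripts of one reach the probes of the other was not tested.

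S100a10, known as p11, binds annexin A2 as its light chain and, unlike its relatives, does not need calcium to do so. It was at 7.57 in progenitors, at 7.33 in mature mast cells and at 9.09 in innate lymphoid cells. Innate lymphoid cells were high and progenitors were above mature mast cells by 0.25. The differences from innate lymphoid cells were -1.51 for progenitors and -1.76 for mature mast cells, or 2.85-fold and 3.38-fold, both under the 4-fold limit.

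S100a13, which takes part in the unconventional secretion of interleukin 1α and fibroblast growth factor 1, was at 7.47 in progenitors, at 7.75 in mature mast cells and at 7.47 in innate lymphoid cells. Mature mast cells were highest by 0.28 and the other arrays were exactly tied.

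S100a8 was at 6.01 on all 3 arrays, below each array's median. S100a9, the other calprotectin subunit, was at 6.83 in progenitors, at 6.78 in mature mast cells and at 6.59 in innate lymphoid cells, a spread of 0.24. Neither gene thus stood out in any population. Of 16 neutrophil markers 0 differed 2-fold in any comparison, near the background of 0.509% to 1.93% of all genes in a given direction. Their summed log2 level was 99.7 for progenitors, 98.7 for the mature cells and 99.9 for the lymphoid cells. Since 7 of the 16 were tied on all arrays, like sums do not show like expression.

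S100a1, best known from muscle, was at 6.08 and S100b, best known from glia, at 6.12 on every array. Both lay below the array medians. The value of S100a8 was held by 71 to 80 other genes on each array, that of S100a1 by 48 to 64 and that of S100b by 48 to 60. Such ties are common in the deposited table. Of all genes, 10626 (47.9%) were exactly tied on all 3 arrays, as were 3 of the 9 S100 genes, and 54.6% to 56.7% of genes on an array shared their value with another gene. A tie in these values therefore does not show equal expression, and small differences of these 3 genes would not be seen.

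Progenitors were set against mature mast cells to ask how the immature cells of this lineage differ from the granulated ones. Of the 9 S100 genes S100a6 alone passed the 4-fold limit as lower in progenitors, where the background over all genes was 0.834%, and 0 were higher, where it was 0.113%. At 2-fold 2 were lower (background 1.93%) and 0 higher (0.509%). The median difference of the 9 was 0, as over all genes, and 4 were tied. More bright genes were lower than higher in progenitors. Of the 693 genes whose mean reached 8, 8.23% passed the 4-fold limit as lower and 0.722% as higher, and S100a6, with a mean of 9.69, is among the 693. Whether that shift has a part in the S100a6 difference was not tested.

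Against innate lymphoid cells, taken by the study as a distant relative, 3 of 9 S100 genes passed the limit as lower in progenitors (background 0.888%) and 0 were higher (0.207%). At 2-fold 4 were lower (1.88%) and 0 higher (0.766%). The median difference was again 0, with 4 ties. Among bright genes the shares were 15.7% lower and 3.32% higher. S100a6 and S100a11, with means of 9.69 and 9.93, are among these genes. S100a4, with a mean of 8.06, enters them only through its innate lymphoid level and is not set against these shares. Since the S100 genes were picked with these levels known, the shares are given as background only.

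Mature mast cells and innate lymphoid cells differed at least 4-fold in 1 S100 gene, S100a4, which was lower in mature cells (background 0.401%), and 0 were higher (0.573%). At 2-fold 3 were lower, S100a4, S100a6 and S100a10 (background 1.26%), and 0 were higher (1.34%). The bright genes were more evenly divided here, at 4.04% lower and 3.03% higher. In no comparison was an S100 gene 2-fold higher in a mast cell population than in innate lymphoid cells.

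**Figure D2:**
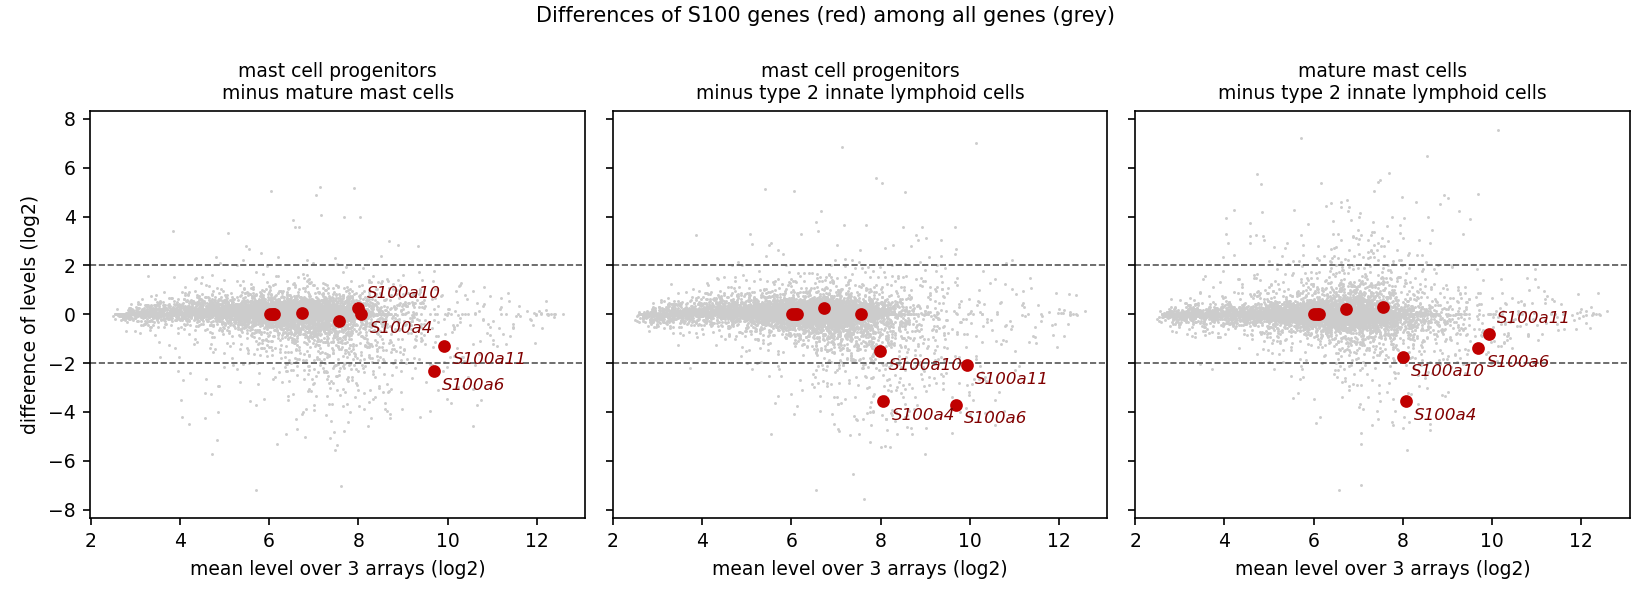
Difference of log2 levels (vertical axis) against the mean log2 level over the 3 arrays (horizontal axis) for all 22180 genes in grey and the 9 S100 genes in red, 1 panel for each comparison, with dashed lines at the 4-fold limits. S100a4, S100a6, S100a10 and S100a11 lie below 0 in both panels in which innate lymphoid cells are subtracted.

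Of 11 further S100-named genes 0 were 2-fold different in any comparison, a count near the background, since 0.509% to 1.93% of all genes passed in a given direction. Their differences ran from -0.81 to 0.54. The largest in size was that of the pseudogene S100a11-ps between mature mast and innate lymphoid cells. In the 16 genes listed as the rest of the family, which include genes of the fused-type S100 proteins of the skin such as that for filaggrin (Flg, at 7.80, 7.37 and 7.37) and S100pbp, a binding protein and no S100 protein, 0 reached 2-fold and 6 were tied on all arrays.

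By the RefSeq gene order, 8 of the 9 genes, all but S100b, lie on chromosome 3. Most form a run in which S100a4 is followed by S100a5 and then S100a6, and S100a8 is next to S100a9, while S100a11 and S100a10 are adjacent to each other and lie 54 protein-coding genes further on, beyond genes of the skin barrier. Between S100a4 and S100a6, S100a5 was at 5.69, 5.15 and 5.56 in progenitors, in mature cells and in the lymphoid cells, below every array's median, and S100a2 on the other side of S100a4 was at 6.25 on all 3 arrays. Of 76 protein-coding genes from 3 before S100a1 to 3 after S100a10, 67 were measured, and S100a4, S100a6 and S100a11 were the 3 that differed 4-fold in some comparison. In a single comparison and direction 0.113% to 0.888% of all genes did so, and these 3 were chosen with their levels known. Non-S100 genes of this stretch also passed 2-fold, with a mast cell population highest (0.509% to 1.93% of all genes in a given direction). Sprr1b was at 9.22, 10.01 and 8.09 in progenitors, mature cells and lymphoid cells. Prr9 was at 7.13, 6.01 and 6.58 and Tdpoz1 at 7.11, 5.89 and 5.42 in that order.

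**Figure D3:**
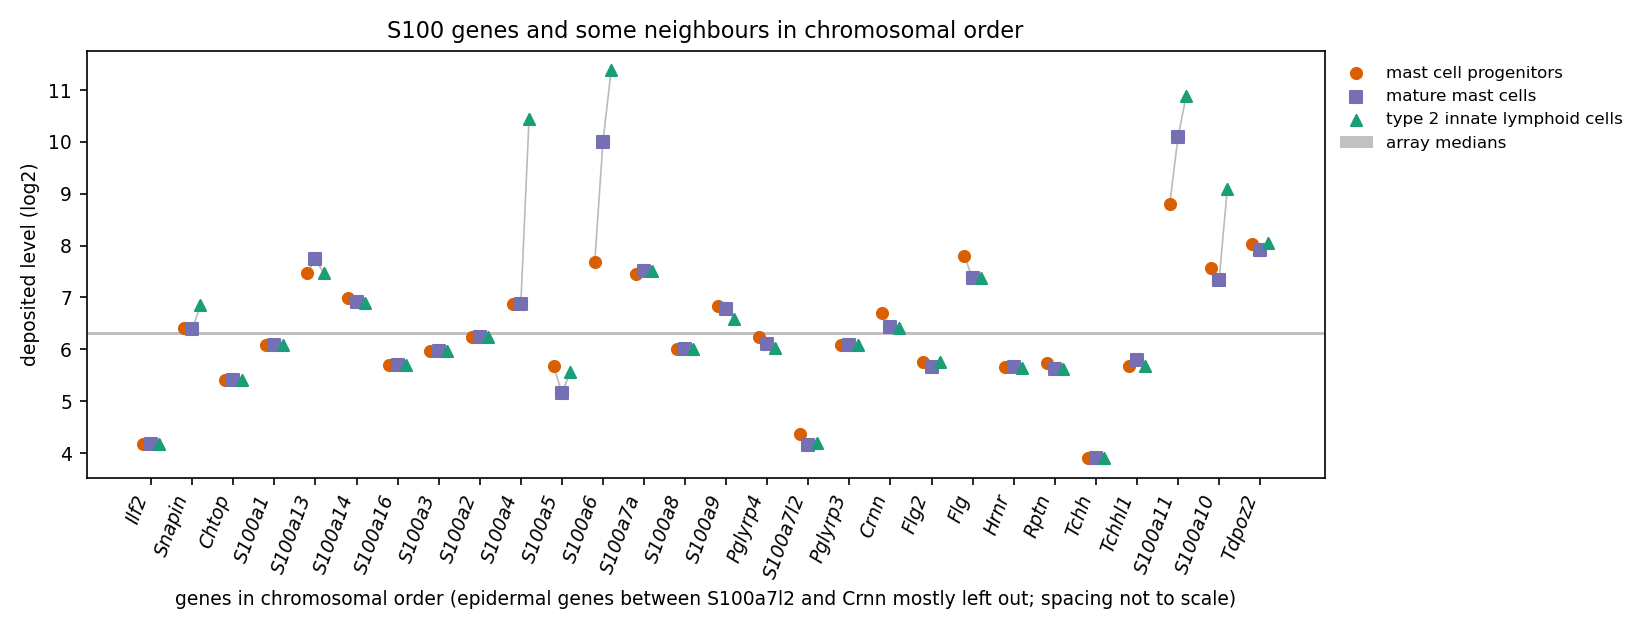
Deposited log2 level (vertical axis) of S100 genes and selected neighbours in chromosomal order (horizontal axis, spacing not to scale), with 1 symbol for each population and the array medians as a grey band. S100a4, S100a6, S100a11 and S100a10 are highest in innate lymphoid cells, and the S100 genes between them differ by less than 2-fold. The neighbours Prr9, Sprr1b and Tdpoz1, which differ at least 2-fold in a comparison, are not drawn.

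Genes with 3 levels most like those of an S100 gene were found by the smallest distance between log2 levels over the 3 arrays. For S100a4 they were Klf6 (distance 0.25), at 6.94, 7.07 and 10.30 (progenitors, then mature, then lymphoid cells), Taf1d (0.49) and Rnf125 (0.50). The nearest to S100a6 were the ribosomal pseudogene Rpl31-ps20 (0.29), Anapc13 (0.40) and Cnbd2 (0.58). S100a11 was nearest to the proteasome gene Psma6 (0.43), at 8.86, 9.76 and 10.62, then Rps9 (0.58) and Cdc42 (0.61). For S100a10 they were the chemokine receptor gene Cxcr4 (0.20), at 7.50, 7.50 and 9.16, Rc3h1 (0.34) and the vomeronasal receptor gene Vmn1r94 (0.38). With 3 arrays such likeness is a description of levels alone.

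Annexins are calcium-dependent membrane-binding partners of S100 proteins. Of 11 measured annexin genes 0 differed 4-fold in any comparison, where 0.113% to 0.888% of all genes did so in a given direction. At 2-fold 0 were higher in innate lymphoid cells than in progenitors (1.88% of all genes) or mature mast cells (1.26%), so these counts are near the background. In mature cells 2 were 2-fold higher than in progenitors (1.93% of all genes) and 1 was 2-fold higher than in innate lymphoid cells (1.34%). Anxa1, the partner of S100a11, was at 9.07 in mature mast cells and at 8.05 in innate lymphoid cells, and the difference of progenitors from mature cells was -1.08. Mature cells were thus highest, at least 2-fold above both others. Anxa6 was at 6.92, 8.53 and 7.65, also highest in mature cells, by 1.61 over progenitors. Anxa2, the partner of S100a10, was tied at 6.25 on all arrays, below each median, which does not show equal expression.

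Among 14 measured cytoplasmic targets 1 differed 4-fold, with mature cells above progenitors (0.834% of all genes) and innate lymphoid cells (0.573%). This was Capns1, the small subunit of calpains and itself an EF-hand protein. Capns1 was at 6.64 in progenitors, at 9.69 in mature mast cells and at 6.67 in innate lymphoid cells, so mature cells alone were high. Ahnak, a scaffold that binds the complex of S100a10 and annexin A2, was at 7.58, 8.01 and 8.20 and did not reach 2-fold. Myh9, the myosin heavy chain bound by S100a4, was at 6.67, 6.72 and 6.72. Cacybp, a binding protein of S100a6, was at 6.76, 7.06 and 7.06.

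Of 18 measured genes for receptors of released S100 proteins, their signalling and secretion 0 reached 2-fold in any comparison, and 7 were tied on all arrays. Over all genes 0.509% to 1.93% passed 2-fold in a given direction, so a count of 0 in a list this short is near the background. Ager, which encodes RAGE, was at 7.89 in progenitors, at 7.60 in mature mast cells and at 7.70 in innate lymphoid cells. Tlr4 was at 5.95, 5.83 and 5.95, below each array's median.

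Of 37 other genes listed as EF-hand sensors 4 passed the 4-fold limit between the mast cell populations, all with mature cells higher, where 0.834% of all genes did so. They were Chp1, Myl12a, Capns1 and Plek, the last of which encodes pleckstrin, no EF-hand protein. Against innate lymphoid cells 3 were 4-fold lower in progenitors (0.888% of all genes), Chp1, Myl12a and the mitochondrial calcium uptake gene Micu2. Between mature mast and innate lymphoid cells 2 were higher in mature cells (0.573% of all genes), Capns1 and Plek, and 2 lower (0.401%), Chp1 and Micu2. Chp1, a calcineurin-like regulator of sodium-proton exchange, was at 3.74, 8.11 and 10.30, and Myl12a, a myosin regulatory light chain, at 6.18, 8.24 and 9.83, in the same order of populations as S100a6. Plek was at 6.95, 10.08 and 6.95, high in mature cells alone, and its 2 lower values were exactly equal. Micu2 was exactly tied at 4.99 on both mast cell arrays and at 7.21 in innate lymphoid cells. The folds of Plek and Micu2 are thus taken against tied values. The list's median difference was 0 in each comparison, as over all genes.

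**Figure D4:**
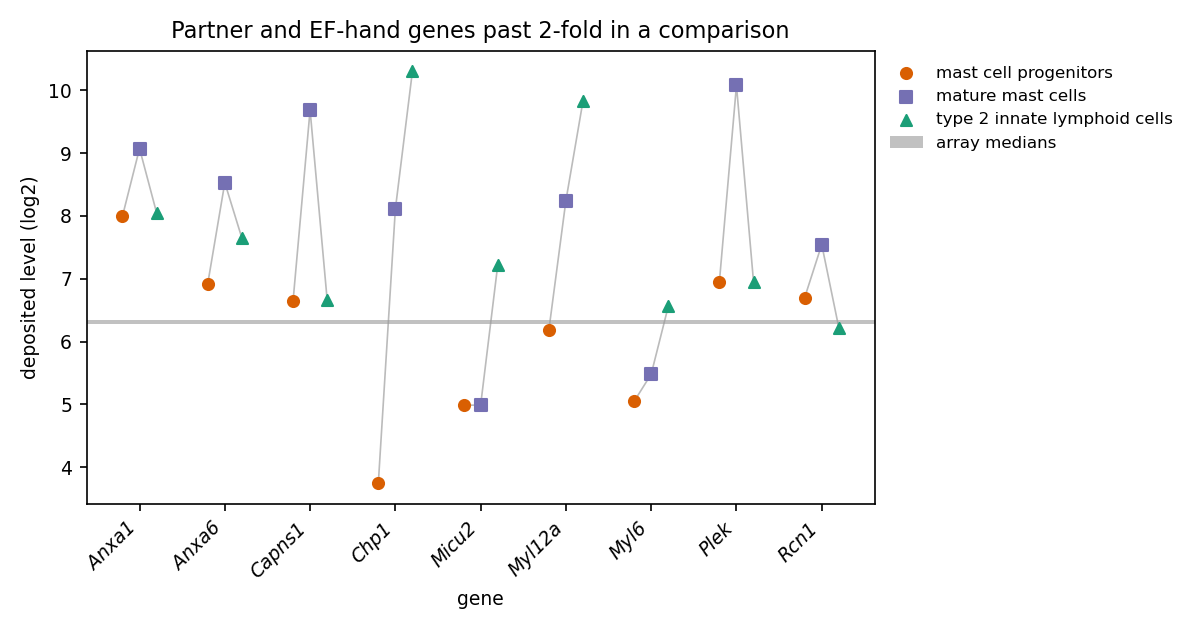
Deposited log2 level (vertical axis) of the genes among annexins, S100 targets and listed EF-hand genes that differed at least 2-fold in a comparison (horizontal axis), with 1 symbol for each population and the array medians as a grey band. Anxa1, Anxa6, Capns1, Plek and Rcn1 are highest in mature mast cells, whereas Chp1, Micu2, Myl12a and Myl6 are highest in innate lymphoid cells.

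The labels were checked on marker genes. Of 10 mast cell markers 8 were at least 4-fold higher in mature mast cells than in innate lymphoid cells (0.573% of all genes). In progenitors 3 were so (0.207%), and Fcer1a, at 5.37, Hdc, at 5.59, and Ms4a2, at 6.25, lay below the array median. Gata2 was at 7.59 in both mast cell populations and at 7.50 in innate lymphoid cells. Kit, whose protein was high on the sorted progenitors, was 10.6-fold lower there than in mature cells and 1.20-fold above the c-kit negative or low innate lymphoid cells. Of 10 innate lymphoid markers 4 (Il7r, Klrg1, Ccr2 and Arg1) were at least 4-fold higher than in both mast cell populations. The share of all genes was 0.37%. Gata3 was at 6.76, 6.76 and 6.82 in progenitors, mature cells and innate lymphoid cells. Il13 was at 7.65, 7.41 and 7.41, highest in progenitors, and Rora and Thy1 were tied on all arrays. Il2ra and Il5 were higher in innate lymphoid cells by 0.66 and 0.49. Among 17 macrophage and monocyte, 8 B cell, 10 T and NK cell and 7 eosinophil and basophil markers 0 differed 2-fold in any comparison. At 2-fold 0.509% to 1.93% of all genes passed in a given direction, so counts of 0 in lists this short are near the background. In the same order 6, 4, 4 and 3 of these markers were tied on all arrays. Such counts do not show that other cells were absent. Genes above a level of 8 numbered 619 on the progenitor array, 788 on the mature mast cell array and 811 on the innate lymphoid array.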

How the data were processed

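Expression was measured on 3 arrays, 1 for each sorted population, from amplified cDNA of 100 cells. The deposited table holds log2 levels for 41345 probe sets, which the authors made by RMA according to the submitters' processing notes. The software, its version and the genome build are not given in the sources used here. That the scale is log2 follows from the range of the values. Of the probe sets, 23521 named 1 gene in the platform's gene table, and for each gene the probe set of highest mean stood for it, giving 22180 genes. All 9 S100 genes matched the mouse RefSeq table (GRCm38.p6) by gene identifier, and that table gave the order of genes.

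Differences of log2 levels were taken in 3 comparisons. With 1 array a group no test was possible, and the number of arrays limits the precision. The S100 genes, the 12 gene and marker lists and the rules were chosen with earlier results of these data known. Named were the 9 genes, list members past 4-fold and further large or relevant members, the 3 nearest genes to each S100 gene that varied 2-fold, and chromosomal neighbours. Counting was tested on simulated data. Alternatives covered the floor, the fold limit, the scaling and the choice of probe set. Python 3.11.15, pandas 2.3.3, numpy 2.4.6 and matplotlib 3.10.9 were used.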

Additional observations from a re-analysis of the deposited data

How the results depend on the processing

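Counts of S100 genes past the limit depended mainly on the limit itself. With 2-fold in place of 4-fold the count was 2 in place of 1 between progenitors and mature mast cells, 4 in place of 3 between progenitors and innate lymphoid cells, and 3 in place of 1 between mature mast and innate lymphoid cells. Without a floor, with the floor at the 75th percentile and with arrays set to 1 median each count stayed as reported. Quantile normalization left 2 of 3 genes past 4-fold between progenitors and innate lymphoid cells, since S100a11 moved to -1.85. In each of the other comparisons the 1 gene past 4-fold stayed past it. Under the 2 other scalings 53 of 54 differences stayed on their side of the 4-fold limit, and the largest move was 0.24. That count says little about stability. The array medians, at 6.32, 6.30 and 6.30, were nearly equal already, so setting them to 1 median could hardly move a difference. It took S100a11, the nearest to the limit, from -2.09 to -2.11. Many other differences were 0 or far from the limit before scaling. Each S100 gene has 1 probe set, so the choice of probe set could not change its level and is not counted here. No paired analysis was possible because each population has 1 array. The single arrays, the shared values of dim genes and the amplification from few cells limit what can be seen.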
